A study of Mus musculus with 10 samples.

Results

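MHC class II genes encode the proteins that show peptides of ingested protein, such as an inhaled allergen, to CD4+ T cells. The following 10 were examined across lung RNA-seq libraries. They were chosen by symbol and not by their values, though earlier results of these data were known. They are the peptide-binding chains H2-Aa, H2-Ab1 and H2-Eb1, the invariant chain Cd74 and the transactivator Ciita. The others are the peptide-loading genes H2-DMa, H2-DMb1, H2-Oa and H2-Ob, and the protease Ctss. All members together account for 10 of 24394 gene symbols and 16 of 66548 transcript rows. Every row with one of these symbols was taken, alone and summed per gene.

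The 10 libraries came from lungs of female BALB/c mice, 1 library per mouse. The mice were 8 weeks old when purchased, before the protocol. Saline mice (n = 3) received saline only, OVA mice (n = 3) were sensitized to the egg protein ovalbumin with alum by injection and then challenged with it through the nose, and Herb mice (n = 4) went through the same ovalbumin protocol and also took 200 mg/kg of an ethanol extract of Descurainia sophia seeds by mouth (called DSE in the study). The study had 7 mice per group, and the sequenced mice are part of them. OVA vs. Saline addresses the asthma model, Herb vs. OVA the extract, and Herb vs. Saline what still separated treated mice from controls.

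Class II molecules are made all the time in B cells, dendritic cells and macrophages, and in the lung also in alveolar type 2 cells. An alpha and a beta chain pair in the endoplasmic reticulum around the invariant chain, which fills the groove and leads the complex to endosomes. There cathepsin S (Ctss) cuts the invariant chain down to a short stub, H2-DM exchanges the stub for a peptide, and H2-O restrains H2-DM. Transcription of the class II chain genes and of Cd74 needs a promoter module of S, X, X2 and Y boxes. RFX, CREB and NF-Y proteins bind this module, and CIITA assembles on them. BALB/c mice carry other class II alleles (H-2d) than the mm10 reference genome (C57BL/6, H-2b), so reads of the polymorphic chains may align with mismatches.

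Since class II chain genes are known by this shared promoter module, the stretch holding it is shown where it was found. These are the 3 members in which it ends before the gene start of both RefSeq and GENCODE. The stretch is also shown for H2-Eb2, a copy of H2-Eb1 that is no member. Promoters of 7 of the 10 members were found in RefSeq (GRCm38.p6), from 250 bases before to 50 bases after the transcript start. None was found for H2-Ab1, Cd74 or Ciita. Capitals mark the Y box core TGATTGG and, upstream of it, the X2 core as TGATGC or TGACGTCA. Each line reads 5′ to 3′ on the strand of the gene and ends before both starts.
H2-Aa (chr17:34287857-34287923, minus strand): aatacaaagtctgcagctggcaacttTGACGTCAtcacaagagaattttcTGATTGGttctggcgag
H2-Eb1 (chr17:34305756-34305822, plus strand): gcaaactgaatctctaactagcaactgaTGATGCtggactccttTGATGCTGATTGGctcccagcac
H2-Ob (chr17:34238796-34238862, plus strand): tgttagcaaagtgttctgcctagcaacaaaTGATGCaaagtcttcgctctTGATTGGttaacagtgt
H2-Eb2 (chr17:34325523-34325589, plus strand): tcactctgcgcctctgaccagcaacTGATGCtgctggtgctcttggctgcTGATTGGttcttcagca

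The Y box core was present on the strand of the gene in 5 of the 7 members with a promoter, and started 45 to 63 bases before the transcript start that the RefSeq promoter is built on. Against the GENCODE start, the Y box of H2-Oa began 6 bases before it and that of H2-DMb1 lay after it, so neither stretch is shown. The X2 core began 20 to 24 bases upstream of the Y box in H2-Aa, H2-Eb1, H2-DMb1 and H2-Ob, and H2-Eb1 had another copy 6 bases upstream of it. H2-Oa held neither X2 form in this stretch, and the windows of H2-DMa and Ctss held no Y box core. The spacing was 25 bases in H2-Eb2. Of all 32851 mouse promoters of this length, 7.82% held the Y box core on either strand, 10.91% held TGATGC and 1.79% held TGACGTCA. On the strand of the gene alone, as searched in the members, 4.01% held the Y box core, 5.6% TGATGC and 1.79% TGACGTCA. An X2 core within 50 bases upstream of a Y box on the strand of the gene was found in 32 promoters (0.1%). TGATGC and TGATTGG share their first letters and were not counted over the same bases.

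The members divided into an abundant set and a low set. In GRCm38, 7 of them lie within 1 stretch of chromosome 17, from H2-Oa (start 34092340) to H2-Eb1 (end 34316674), and Ciita lies on chromosome 16 and Ctss on chromosome 3. Levels are in FPKM, in which the fragments of a transcript are divided by its length and by the size of the library. They are comparable between genes because they are per length. Averaged over the 10 libraries, Cd74 was at 110 FPKM, Ctss at 72.5, H2-Aa at 32.4, H2-Ab1 at 19.7 and H2-Eb1 at 15.2. Ciita was at 3.48 FPKM, H2-Ob at 1.89, H2-DMb1 at 1.46 and H2-Oa at 0.656. H2-DMa was listed at 0 in every library. In this order, H2-Aa and H2-Ab1, H2-Ab1 and H2-Eb1, H2-Ob and H2-DMb1, and H2-DMb1 and H2-Oa had overlapping ranges in every group. Cd74 and Ctss overlapped in OVA and Herb. Ciita and H2-Ob overlapped in Herb, while Ciita was below H2-Ob in Saline and above it in OVA.

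**Figure D1:**
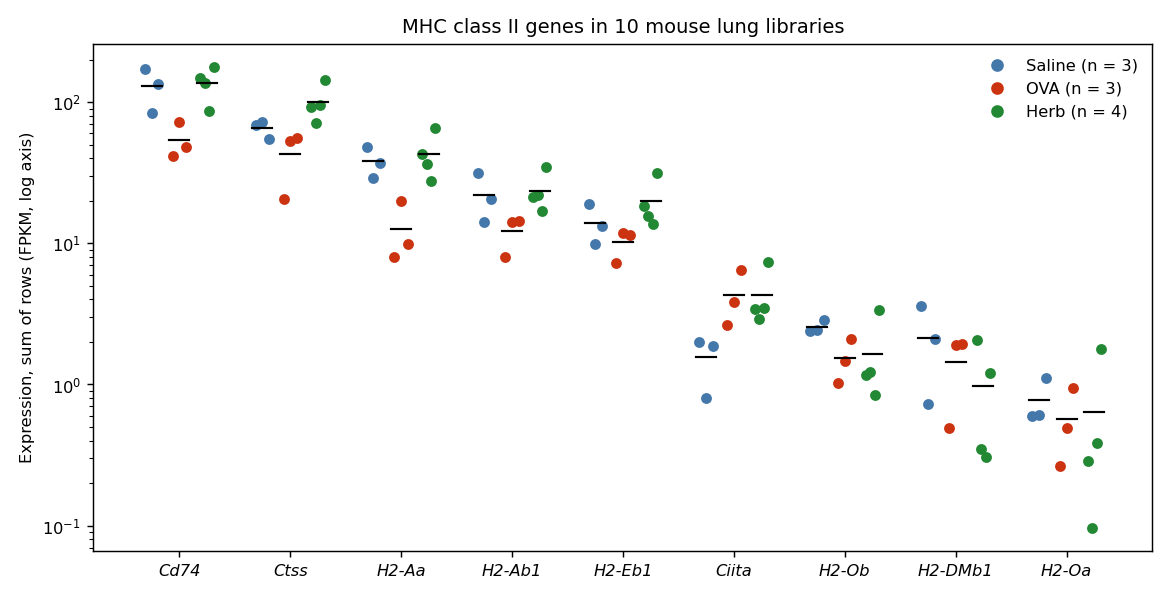
Expression of 9 MHC class II genes, as the sum of the rows of each gene in FPKM on a log axis, with 1 point per library and a line at the group mean. H2-Aa and Cd74 are lower in all 3 OVA libraries than in any other library, and Ciita is higher in all OVA and Herb libraries than in Saline.

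Before the comparisons, a property of the libraries has to be given, because it moves with the groups. Estimated depth was 14700000 to 29400000 fragments per library. Fragments on protein-coding RefSeq transcripts made up 33.0 to 33.3% of a library in Saline, 11.9 to 14.9% in OVA and 19.3 to 25.8% in Herb, so that the FPKM of most protein-coding genes is lower in OVA as deposited. Folds are therefore given as deposited and after setting the 75th percentile of all libraries equal. They are log2 fold changes of FPKM + 1 from limma, with the Benjamini-Hochberg adjusted p over all 11205 genes that averaged 1 FPKM or more, and a call is an adjusted p under 0.05. The median of all genes moved from -0.75 as deposited to 0.07 after rescaling in OVA vs. Saline, from 0.48 to 0.01 in Herb vs. OVA and from -0.27 to 0.09 in Herb vs. Saline. In whole lung, fewer cells of a type and less RNA per cell cannot be told apart. Some members are described by groups that do not overlap, and the share of all genes with such groups was not computed. H2-DMa and H2-Oa were under the level for testing, and the other 8 members were tested.

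In OVA vs. Saline the alpha chain H2-Aa and the invariant chain Cd74 were lower as deposited, and Ciita was the only member that was higher. These are 3 calls among 8 tested members, where 61.2% of all genes were called, 6485 of them lower and 368 higher. After rescaling Ciita was the only member called, where 41.2% of all genes were called, 2695 of them higher and 1922 lower. The median over the members was -0.61 as deposited, beside -0.75 over all genes. After rescaling it was 0.33, beside 0.07 over all genes.

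H2-Aa, the alpha chain of the I-A molecule, was at 48.3, 28.8 and 36.9 FPKM in Saline, 7.93, 19.9 and 9.85 in OVA, and 43.1, 36.6, 27.5 and 65.3 in Herb. The OVA libraries lay below all others, and Saline and Herb overlapped. The log2 fold change was -1.59 ± 0.39 (SE; adjusted p = 0.00583, limma), and -0.49 ± 0.35 after rescaling (adjusted p = 0.283, limma). Cd74, the chaperone of the chains, was at 172, 84.3 and 134 FPKM in Saline, 41.4, 72.8 and 48.2 in OVA, and 147, 136, 86.7 and 177 in Herb. As for H2-Aa, no OVA library reached a library of another group. Its log2 fold change of -1.23 ± 0.35 (adjusted p = 0.0129, limma) became -0.08 ± 0.30 after rescaling (adjusted p = 0.843, limma), and as deposited it was -1.0 and not called without Saline replicate 1.

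The beta chains did not pass the test, except that H2-Ab1 was called lower without Saline replicate 2 (-1.05). H2-Ab1, the partner of H2-Aa in I-A, was at 31.7, 14.2 and 20.5 FPKM in Saline, 8.02, 14.2 and 14.3 in OVA, and 21.3, 22.0, 16.8 and 34.4 in Herb. Saline and OVA overlapped at the second Saline library, with a log2 fold change of -0.78 ± 0.35 (adjusted p = 0.0783, limma) and 0.31 ± 0.32 after rescaling. H2-Eb1, the beta chain of I-E, was at 18.9, 9.94 and 13.2 FPKM in Saline, 7.20, 11.8 and 11.5 in OVA, and 18.4, 15.7, 13.8 and 31.5 in Herb. Its log2 fold change in OVA vs. Saline was -0.41 ± 0.33 as deposited and 0.65 ± 0.32 after rescaling (adjusted p = 0.126, limma). When libraries were instead scaled to the summed FPKM of protein-coding rows, H2-Eb1 was called higher, with a log2 fold change of 1.00.

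Ciita, the coactivator without which class II genes are hardly transcribed, was at 2.01, 0.807 and 1.87 FPKM in Saline, 2.65, 3.83 and 6.46 in OVA, and 3.41, 2.92, 3.50 and 7.38 in Herb. The Saline libraries lay below all others. The log2 fold change in OVA vs. Saline was 1.03 ± 0.35 (adjusted p = 0.03, limma) as deposited and 1.83 ± 0.36 (adjusted p = 0.00429, limma) after rescaling. With 2 unnamed transcript models that stand beside the Ciita rows of the table added, it was 0.55 ± 0.41 and not called (adjusted p = 0.275, limma). As deposited it was also not called without the filter on low values (1.03, adjusted p = 0.0532, limma) or without Saline replicate 2 (0.79), OVA replicate 2 (1.06) or OVA replicate 3 (0.75). The table does not pair the models with a gene, and the alternative was chosen after seeing the data.

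The peptide-loading genes were low, and none of those tested was called. H2-Ob, a chain of H2-O, was at 2.41, 2.43 and 2.86 FPKM in Saline and 1.03, 1.47 and 2.09 in OVA, without overlap, and its log2 fold change was -0.51 ± 0.30 (adjusted p = 0.166, limma; 0.0311 without Herb replicate 4). H2-DMb1, a chain of H2-DM, ranged from 0.722 to 3.58 FPKM in Saline and from 0.488 to 1.94 in OVA, with a log2 fold change of -0.32 ± 0.45. These 2 ranges overlapped widely, as did the Herb range of 0.306 to 2.06. H2-Oa, the other chain of H2-O, was at 0.596 to 1.11 FPKM in Saline, 0.265 to 0.944 in OVA and 0.0965 to 1.78 in Herb, or about 2 to 38 fragments per library. When fitted without the filter on low values, H2-Oa had a log2 fold change of -0.19 ± 0.33 in OVA vs. Saline (adjusted p = 0.714, limma). Ctss, which trims the invariant chain, was at 68.8, 71.8 and 54.3 FPKM in Saline and 20.5, 52.7 and 55.3 in OVA, overlapping by 1 library, with a log2 fold change of -0.70 ± 0.39 (adjusted p = 0.142, limma) as deposited and 0.43 ± 0.37 after rescaling.

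The 3 chains, Cd74 and Ctss were all higher in Herb vs. OVA as deposited, and none of these 5 calls was left after rescaling by limma, where 2 members, H2-Aa and Cd74, had an unadjusted p under 0.05. Of all genes, 44.5% were called as deposited, 4932 of them higher and 50 lower, and 0.803% after rescaling (90 genes, with 3007 at an unadjusted p under 0.05). H2-Aa had the largest member fold, 1.73 ± 0.36 on the log2 scale (adjusted p = 0.00796, limma), and 1.09 ± 0.33 after rescaling (adjusted p = 0.0884, limma). Cd74 differed by 1.32 ± 0.33 (adjusted p = 0.013, limma) as deposited and 0.64 ± 0.28 after rescaling. Ctss was at 92.5, 71.0, 95.2 and 143 FPKM in Herb, above every OVA library, and differed by 1.29 ± 0.36 (adjusted p = 0.0196, limma), or 0.62 ± 0.35 after rescaling. The 4 Herb libraries were also above all OVA libraries in H2-Ab1 and H2-Eb1 as deposited. How many of all genes were separated in this way was not computed. Their log2 folds of 0.90 ± 0.33 and 0.86 ± 0.31 had adjusted p of 0.0496 and 0.0499 (limma), just under the threshold.

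Ciita and the tested loading genes gave no call in Herb vs. OVA. With the unnamed models beside its row added, an alternative chosen after seeing the data, H2-DMa was called higher as deposited (0.58 ± 0.19 on the log2 scale, adjusted p = 0.0353, limma). The means of Ciita were 4.31 FPKM for OVA (SD 1.95, n = 3) and 4.30 FPKM for Herb (SD 2.07, n = 4), with a log2 fold change of -0.01 and an interval from -0.75 to 0.73 as deposited, and of -0.57 ± 0.33 after rescaling (adjusted p = 0.305, limma). H2-Ob differed by 0.00 ± 0.28 as deposited and -0.44 ± 0.28 after rescaling, and H2-DMb1 by -0.33 ± 0.43 and -0.71 ± 0.41. Without OVA replicate 1, 2 or 3, Herb replicate 1, 2 or 4 or Saline replicate 3, 3 members were called instead of 5.

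In Herb vs. Saline, Ciita alone was called, higher by 1.02 ± 0.33 on the log2 scale (adjusted p = 0.0497, limma), where 26.1% of all genes were called. After rescaling it differed by 1.26 ± 0.33 (adjusted p = 0.0368, limma), with 15.7% of all genes called. The chains and Cd74 were close to Saline as deposited: 0.14 ± 0.36 for H2-Aa, 0.12 ± 0.33 for H2-Ab1, 0.45 ± 0.31 for H2-Eb1 and 0.09 ± 0.33 for Cd74. The interval for H2-Aa ran from -0.68 to 0.96. After rescaling the same genes differed by 0.60, 0.56, 0.88 and 0.56, none of them called, and with libraries scaled to the protein-coding sum H2-Eb1 (1.06) and Ctss (1.25) were called higher beside Ciita. Without Herb replicate 4, the library with the highest level of all members but H2-DMb1 and H2-DMa, Ciita was no longer called and H2-Ob was called lower, with a log2 fold change of -0.78. Testing without the filter on low values, or leaving out any 1 Saline library, OVA replicate 2 or Herb replicate 1 or 3 also left no member called.

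**Figure D2:**
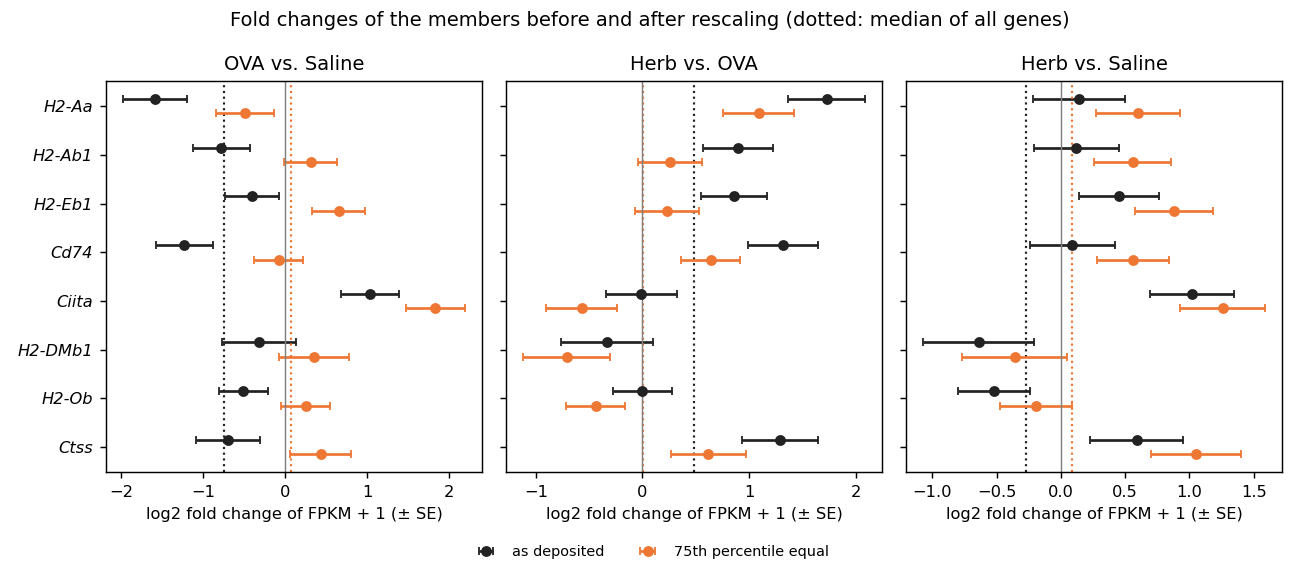
Log2 fold changes of FPKM + 1 (points) with standard errors (bars) for the 8 tested members, as deposited (black) and with the 75th percentile of all libraries set equal (orange), and dotted lines at the median of all genes. In OVA vs. Saline most members move from below to above 0 with the rescaling, while Ciita stays above 0 in both.

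Of the summed FPKM of protein-coding rows, the 10 members together made up 0.145 to 0.261% in Saline, 0.229 to 0.338% in OVA and 0.29 to 0.541% in Herb. Saline and OVA overlapped on this scale, as did OVA and Herb, and the Herb libraries were above all Saline libraries. The share of Ciita was 0.000547 to 0.00151% in Saline, 0.00678 to 0.0124% in OVA and 0.00296 to 0.00858% in Herb. B2m, the light chain of MHC class I, made up 0.182 to 0.262% in Saline, 0.0394 to 0.0622% in OVA and 0.0599 to 0.108% in Herb. These shares describe the libraries and were not themselves tested. In the limma fit with libraries scaled to this sum, Ciita (2.08 ± 0.34) and H2-Eb1 (1.00 ± 0.32) were called higher in OVA vs. Saline. No member was called lower there.

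Ratios of members within a library do not depend on how that library is scaled. Of the 6 ratios examined, 3 set OVA apart from both other groups. All 3 have H2-Aa below the line, alone or in a sum, so they are not independent of each other. The share of ratios of other genes that separate the groups was not computed. The H2-Ab1 to H2-Aa ratio was 0.657, 0.492 and 0.555 in Saline, 1.01, 0.711 and 1.45 in OVA, and 0.495, 0.601, 0.611 and 0.526 in Herb. The OVA libraries lay above those of both other groups, with no overlap. The ratio was 1.80-fold higher in OVA than in Saline (two-sided exact permutation test, p = 0.1, adjusted p = 0.225 over 18 ratio comparisons) and 0.55-fold in Herb relative to OVA (exact permutation test, p = 0.0571, adjusted p = 0.206). These are the smallest p that 3 against 3 and 3 against 4 libraries can give, so the design cannot pass the threshold.

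The H2-Eb1 to H2-Aa ratio was 0.391, 0.345 and 0.358 in Saline, 0.908, 0.592 and 1.16 in OVA, and 0.426, 0.428, 0.501 and 0.482 in Herb. All 3 groups were apart, with OVA highest and Herb between. OVA was 2.35-fold Saline (exact permutation test, p = 0.1, adjusted p = 0.225) and Herb was 1.26-fold Saline (exact permutation test, p = 0.0571, adjusted p = 0.206). The Ciita to chain ratio, with the sum of H2-Aa, H2-Ab1 and H2-Eb1 below the line, showed the same order. It was 0.0152 to 0.0265 in Saline, 0.0834 to 0.181 in OVA and 0.0393 to 0.0603 in Herb, and OVA was 5.95-fold Saline (exact permutation test, p = 0.1, adjusted p = 0.225). With the unnamed models beside Ciita added, an alternative chosen after seeing the data, the groups stayed apart in this order but OVA was 3.46-fold Saline. These orders run opposite to the protein-coding share of the libraries, which is lowest in OVA, and the part of that share in the ratios was not tested.

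The other ratios overlapped between the groups. Cd74 stood at 1.59 to 1.90 times the sum of the 3 chains in Saline, 1.35 to 1.79 in OVA and 1.35 to 1.83 in Herb, and OVA was 0.9-fold Saline (exact permutation test, p = 0.4, adjusted p = 0.6). Ctss to Cd74 was 0.401 to 0.852 in Saline, 0.495 to 1.15 in OVA and 0.522 to 1.10 in Herb. H2-Oa and H2-Ob together were at 0.841 to 4.21 times H2-DMb1 in Saline, 1.04 to 2.66 in OVA and 0.705 to 4.27 in Herb. Because H2-DMa is listed at 0, this ratio of H2-O to H2-DM rests on H2-DMb1 alone.

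**Figure D3:**
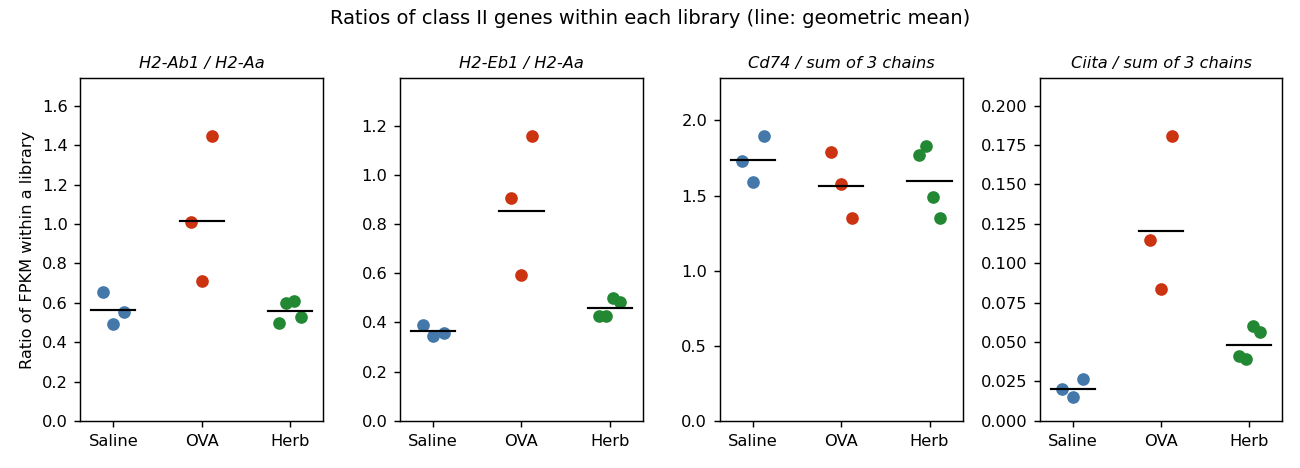
Ratios of FPKM within each library, with 1 point per library and a line at the geometric mean, on linear axes from 0. The OVA libraries lie above all Saline and Herb libraries in the H2-Ab1 to H2-Aa, H2-Eb1 to H2-Aa and Ciita to chain ratios, and the groups overlap in the Cd74 to chain ratio.

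Single transcript rows were compared next, with adjustment over 30194 rows. In OVA vs. Saline 3 of 10 tested member rows were called, all lower: H2-Aa and both rows of Cd74, where 44.2% of all rows were called. In Herb vs. OVA 4 of 10 were called, all higher, where 32.4% of all rows were called: H2-Aa, both Cd74 rows and the Ctss row NM_021281. In Herb vs. Saline none was called (limma), none had an unadjusted p under 0.05, and 8.09% of all rows were called.

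Cd74 has 2 rows, of which NM_001042605 is the longer form with an additional exon (p41) and NM_010545 the shorter form (p31). The longer form was at 67.6, 29.6 and 52.9 FPKM in Saline, 13.5, 24.2 and 11.9 in OVA, and 54.9, 49.9, 35.6 and 59.3 in Herb. It made up 39.4, 35.1 and 39.5% of Cd74 FPKM in Saline, 32.7, 33.3 and 24.6% in OVA, and 37.5, 36.7, 41.1 and 33.4% in Herb. The OVA shares were the lowest, though one Herb library came within 0.1 percentage points of them. The longer row had a log2 fold change of -1.53 ± 0.36 in OVA vs. Saline (adjusted p = 0.0082, limma) and the shorter row -1.05 ± 0.36 (adjusted p = 0.0381, limma). After rescaling neither was called, at -0.64 ± 0.33 (adjusted p = 0.186, limma) and -0.14 ± 0.32 (adjusted p = 0.776, limma). The difference between the rows was not tested.

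Ciita has 5 rows. NM_001302619 was at 1.37, 0.299 and 0.978 FPKM in Saline, 0.0112, 0.0571 and 0.17 in OVA, and 0.317, 0.199, 0.126 and 0.132 in Herb. It made up 37.1 to 68.2% of Ciita FPKM in Saline, 0.4 to 2.6% in OVA and 1.8 to 9.3% in Herb, so that its share in Saline was far above that in either ovalbumin group. NM_001243760 ran the other way between Saline and OVA, from 0 to 0.0491 FPKM in Saline and 0.986 to 1.71 in OVA, but in Herb it was at 1.39, 2.64 and 0.916 and listed at 0 in the last library. NM_001302618 and NM_001243761 were each listed at 0 in several libraries and above 1 FPKM in others of the same group. The rows share most of their sequence, and values that switch between 0 and high levels among replicates make the single rows uncertain. Only NM_007575 reached the level for testing, at 0.48 ± 0.41 on the log2 scale in OVA vs. Saline (adjusted p = 0.366, limma).

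**Figure D4:**
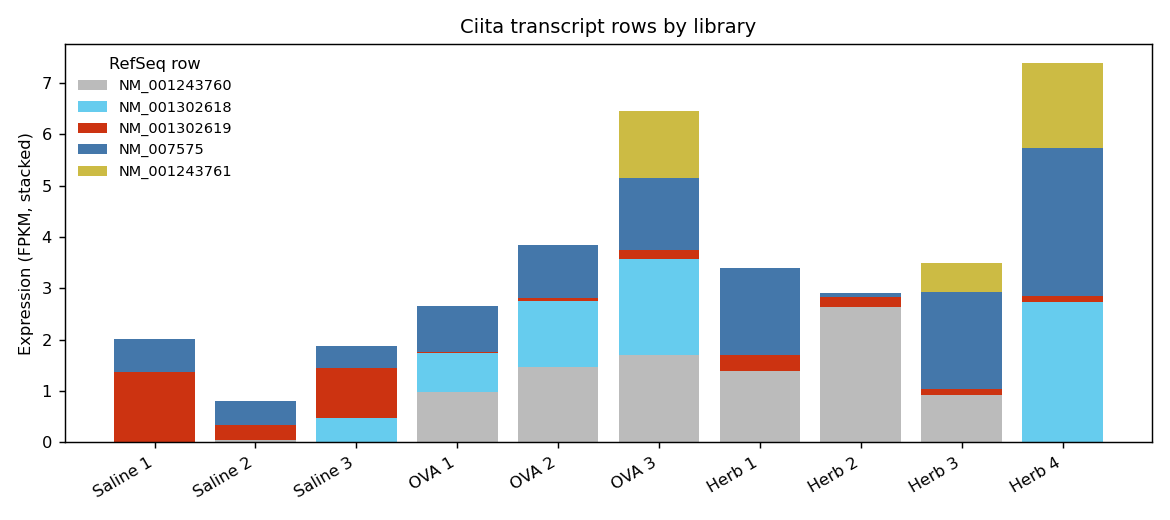
FPKM of the 5 Ciita rows, stacked for each library. The row NM_001302619 makes up 37.1 to 68.2% of the bar in Saline and at most 9.3% in the OVA and Herb libraries.

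Some of the class II locus is counted in rows without a gene symbol. The H2-DMa row was listed at 0 in all 10 libraries, and the 2 unnamed models on either side of it in the table bring the sum to 3.77 to 5.07 FPKM in Saline, 2.14 to 4.08 in OVA and 4.19 to 6.57 in Herb. H2-DMb2, the copy of H2-DMb1, had values of 6.99, 0 and 0 FPKM for Saline, 0, 6.54 and 0 for OVA, and 0, 0, 0.188 and 0.853 for Herb. One unnamed model beside it, MSTRG.12911.2, was at 0 in exactly the libraries where H2-DMb2 was at 6.99 and 6.54, and at 2.83 to 12.8 in the others. With its 3 neighbouring models H2-DMb2 came to 4.58 to 9.46 FPKM in Saline, 4.86 to 8.79 in OVA and 6.90 to 18.8 in Herb, which overlap.

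The same was seen for H2-Ea-ps, the I-E alpha gene that is inactive in the reference strain and functional in BALB/c. Its own row was at 1.21, 4.14 and 5.11 FPKM in Saline, 22.4, 4.43 and 2.90 in OVA, and 1.23, 1.14, 0.927 and 10.7 in Herb. Summed with 3 unnamed models listed just before it, the level was 23.7 to 33.2 FPKM in Saline, 16.5 to 25.4 in OVA and 29.8 to 45.2 in Herb. The sum was above H2-Eb1 in every library. H2-Eb2, a copy of H2-Eb1, stayed between 0.0152 and 0.501 FPKM. The placement of all these models follows from their order and numbering in the table and is uncertain.

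**Figure D5:**
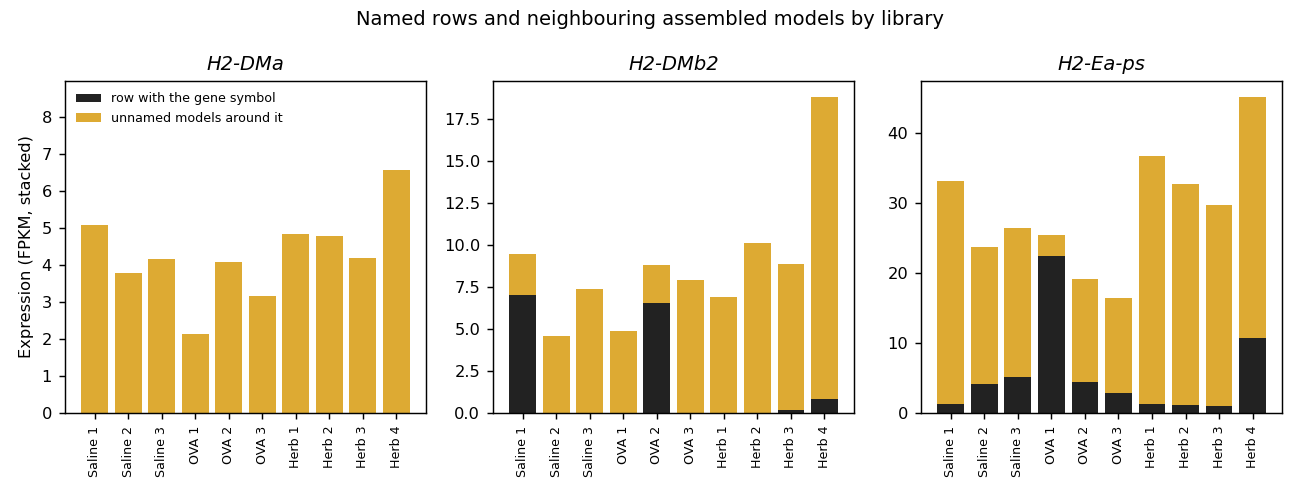
FPKM of the rows named H2-DMa, H2-DMb2 and H2-Ea-ps (black) and of the unnamed transcript models listed around them (yellow), stacked for each library. The H2-DMa bar consists of unnamed models alone, and the named H2-DMb2 row is above 1 FPKM in 2 libraries.

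Other genes of the class II pathway, a list of 24 with the transcription factors of the promoter module, endosomal proteases, ubiquitin ligases of class II and costimulators, are given beside the shares of all genes. Of 21 tested, 13 were called lower and none higher in OVA vs. Saline, where 57.9% of all genes were lower, with a median of -0.93 (all genes: -0.75), and after rescaling 4 were lower and 2 higher with a median of -0.04 (all genes: 0.07). The 4 largest calls were the cathepsins Ctsl (-2.44 ± 0.43), Ctsd (-2.07 ± 0.37) and Ctsb (-1.29 ± 0.36) and Sppl2a (-1.39 ± 0.17), a membrane protease that clears the last piece of the invariant chain. Of the 21, 12 were higher in Herb vs. OVA, where 44% of all genes were higher, with a median of 0.79 (all genes: 0.48), and 0 after rescaling by limma, where 5 had an unadjusted p under 0.05. The largest were Ctsb (1.35 ± 0.34), Ctsd (1.27 ± 0.35), Ctsl (1.21 ± 0.40) and Ctsz (1.10 ± 0.28). In Herb vs. Saline 1 was higher, the costimulator Cd80 (0.66 ± 0.17), and 3 were lower: Sppl2a (-0.52 ± 0.16), the NF-Y subunit Nfyb (-0.54 ± 0.14) and the RFX subunit Rfxap (-0.40 ± 0.12).

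Genes from the interferon gamma receptor to Ciita were all called lower in OVA, 8 of 8 tested, with a median of -1.15, and 2 of 8 after rescaling, beside the 57.9% and 17.2% of all genes that were lower. Ifngr1, a chain of the receptor, was at -2.70 ± 0.46 and Irf1, an interferon-induced transcription factor that acts on Ciita, at -1.40 ± 0.36 on the log2 scale. Of these 8 genes, 6 were higher in Herb vs. OVA with a median of 0.71, and 0 after rescaling by limma (2 with an unadjusted p under 0.05), and 1 was lower in Herb vs. Saline. Of 12 MHC class I genes tested, 9 were lower in OVA with a median of -1.29, with B2m at -3.66 ± 0.36 and the chaperone Pdia3 at -1.36 ± 0.24, and 3 after rescaling. Between Herb and OVA, 9 of the 12 were higher with a median of 0.88, and 0 after rescaling by limma (5 with an unadjusted p under 0.05), and 2 were lower in Herb vs. Saline.

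Markers of the cells that carry class II molecules are given beside these results. Of all genes, 57.9% were lower and 3.28% higher in OVA vs. Saline as deposited. After rescaling 17.2% were lower and 24.1% higher. In Herb vs. OVA 44% of all genes were higher as deposited and 0.348% after rescaling. In Herb vs. Saline 22.7% were lower as deposited. Alveolar type 2 markers, led by the surfactant genes Sftpc and Sftpa1, summed to 3540 to 4600 FPKM in Saline, 486 to 862 in OVA and 1140 to 2110 in Herb. H2-Aa and Cd74 were also lower in OVA as deposited, but after rescaling they were at -0.49 and -0.08 and not called. Of the 10 type 2 markers, 8 were lower in OVA, 7 of them after rescaling. The median over these markers was then -1.18. In Herb, 7 of 10 were higher than in OVA, 0 after rescaling by limma (5 with an unadjusted p under 0.05), and 6 of 10 were lower than in Saline as deposited, where no member was. Dendritic cell markers, led by Itgax and Zbtb46, summed to 18.1 to 21.5 FPKM in Saline, 17.4 to 37.8 in OVA and 26.7 to 47.6 in Herb, and of 7 tested in OVA vs. Saline 2 were higher and 1 lower, or 5 higher after rescaling. Macrophage markers, led by Mrc1 and C1qa, summed to 55.5 to 86.9 FPKM in Saline, 26.1 to 58.0 in OVA and 74.9 to 108 in Herb, with 3 of 10 lower in OVA and 4 of 10 higher in Herb vs. OVA. Neither count was above the share of all genes. After rescaling 1 macrophage marker was higher and 1 lower in OVA, and 0 were called in Herb vs. OVA by limma (1 with an unadjusted p under 0.05).

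B cell markers, led by Cd79b and Cd22, summed to 21.8 to 36.7 FPKM in Saline, 10.4 to 19.2 in OVA and 13.7 to 37.0 in Herb. Of 9 tested, 4 were lower in OVA as deposited, where 57.9% of all genes were lower. After rescaling 2 of the 9 were higher, where 24.1% of all genes were higher. T cell markers, with Lck and Cd3e on top, summed to 10.3 to 17.4 FPKM in Saline, 4.20 to 9.29 in OVA and 7.41 to 15.7 in Herb, and general leukocyte genes, with Tyrobp and Laptm5 on top, to 99.6 to 131, 29.9 to 49.6 and 47.4 to 94.8. Genes listed as eosinophil markers summed to 21.5 to 44.2 FPKM in Saline, 4.39 to 10.5 in OVA and 10.5 to 15.1 in Herb. Ear1 and Ear2 carry this sum in Saline, and it is not read as an amount of eosinophils. Of the 3 genes tested, Ear1 (-2.88 ± 0.46) and Ear2 (-2.17 ± 0.36) were lower in OVA. The third, Alox15, was higher in OVA (0.93 ± 0.28 on the log2 scale), and Prg2, which was not tested, was listed at 0 in all Saline libraries and at 0.876 to 1.65 FPKM in OVA. Alox15 and Prg2 were picked after their values were seen. Without the filter on low values, 2 of the 8 genes listed for eosinophils were called higher in OVA vs. Saline and 2 lower. Their median was then 0.05 (all genes: -0.2). In the study, eosinophils in lung lavage fluid were more abundant in OVA mice than in saline mice. No marker of these lists was at 0 in all libraries. The part of any cell type in the levels of the class II genes was not tested.

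Across the 10 libraries, after rescaling to a common 75th percentile, the genes most like the mean of H2-Aa, H2-Ab1, H2-Eb1 and Cd74 were Ifngr2, the other chain of the interferon gamma receptor (Pearson r = 0.947), Wdr1 (0.919), Rnf44 (0.905), Grb2 (0.891) and Ywhag (0.886), among 3950 genes with a mean of at least 5 FPKM. Ifngr2 was at 10.9, 7.58 and 10.1 FPKM in Saline, 3.27, 5.98 and 5.14 in OVA, and at least 7.96 in every Herb library. Among the members that are not part of this mean, Ctss had r = 0.743, Ciita 0.46, H2-DMb1 0.197 and H2-Ob 0.188. These values describe 10 libraries that share group differences in protein-coding share, and no test was made of them. For deviations from the group means, r was 0.922 for Ifngr2, 0.888 for Wdr1, 0.836 for Rnf44, 0.849 for Grb2 and 0.808 for Ywhag. The 5 genes had been chosen by their r over the same libraries.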

How the data were processed

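RNA-seq was performed on whole lung of 10 mice. According to the labels RNA was extracted with Trizol and libraries were made with the TruSeq RNA kit, whereas the methods of the study name a NucleoSpin kit and stranded mRNA libraries. The submitters' processing notes name cutadapt 1.10, HISAT2, StringTie 1.3.3b and edgeR 3.16.5 with mm10, and the methods name ballgown and other versions. The authors deposited 1 table of FPKM per transcript (66548 rows, of which 31605 are assembled models without symbol), and no scaling between libraries is stated. Read counts were not used here, so the edgeR test of the study was replaced by limma 3.58.1 in R 4.3.3 on log2(FPKM + 1), with an intensity trend, all 10 libraries in 1 fit and Benjamini-Hochberg adjustment. Features with a mean of at least 1 FPKM were tested, as gene sums and as single rows. A fold change on this scale understates that of low genes. P-values measure the spread between these mice.

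Depth was estimated from the value of 1 fragment in genes with a single row, at values under 0.1 FPKM. Per library, 23.9 to 29.3% of the rows used came within 0.05 of a whole number of fragments, so fragment numbers are approximate. A value of exactly 0 can be a failed estimate, because even Gapdh, which all cells use, has such a value in 9 libraries. Ratios were compared by two-sided exact permutation tests with Python 3.11.15 and scipy 1.17.1. The fit was tested on simulated data. Positions and promoters are those of GRCm38. The members and lists were chosen with earlier results of these data known. Named are all members, their copies, up to 4 other pathway genes per comparison with the largest called folds, 2 genes per further list with the highest mean, and the 5 genes most like the chains and Cd74.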

Additional observations from a re-analysis of the deposited data

Results flagged for a closer look

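In Herb the highest library stood apart from the other 3 in 3 low members, and it was replicate 4 each time. Ciita was at 7.38 FPKM there, with a gap to the next library of 0.869 of the range of the group. H2-Ob was at 3.36 FPKM (0.85 of the range) and H2-Oa at 1.78 FPKM. All exceed Dixon's limit for 4 libraries, H2-Oa only narrowly. The 9 members with values above 0 were examined, and chance flags about 1 in 20 groups.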

How the results depend on the processing

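Scaling decided most calls. Of the members, 3 were called in OVA vs. Saline as deposited, but 1 with equal 75th percentiles (Ciita), 2 with equal protein-coding sums (Ciita and H2-Eb1) and 2 with quantile normalization (Ciita and Ctss), all higher. In Herb vs. OVA 5 became 0 under each of these, and in Herb vs. Saline 1 became 3 with protein-coding sums and stayed 1 with quantile normalization, but that was Ctss in place of Ciita. Single rows went from 3 to 0, 1 and 0 in OVA vs. Saline, from 4 to 0 under each scaling in Herb vs. OVA, and from 0 to 2 with protein-coding sums in Herb vs. Saline. In OVA vs. Saline log2 fold changes turned positive, to 0.43, 0.81 and 1.15 for Ctss, 0.31, 0.66 and 0.68 for H2-Ab1, and 0.35, 0.56 and 0.20 for H2-DMb1. They also did so at 0.65, 1.00 and 0.90 for H2-Eb1, 0.25, 0.50 and 0.05 for H2-Ob, and 0.30 (protein-coding sums) and 0.65 (quantile) for Cd74. H2-Aa stayed negative at -0.49 (75th percentile) and -0.13 (protein-coding sums), and came to 0.00 with quantile normalization. H2-Ob in Herb vs. OVA was at -0.44, -0.56 and -0.45, and at -0.04 with a pseudocount of 0.1. Without the filter on low values 2 members were called in OVA vs. Saline (Ciita was lost, as with the added models), 3 in Herb vs. OVA and 0 in Herb vs. Saline, where a pseudocount of 0.1 or the added models also gave 0. With the models Ciita in Herb vs. OVA was at 0.31, and H2-O to H2-DM turned to -0.55 in Herb vs. OVA and -0.76 in Herb vs. Saline on the log2 scale.

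Replicate numbers did not pair the libraries: same-numbered deviations correlated from -0.002 to 0.088. With the replicate block 1 member was called in Herb vs. OVA (H2-Aa), 1 in Herb vs. Saline (H2-Ob, lower) and 2 single rows in Herb vs. OVA. There H2-Ob was at -0.27, and in Herb vs. Saline Cd74 was at -0.05, H2-Aa at -0.08 and H2-Ab1 at -0.07. The block gives Herb replicate 4 a level of its own.

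Leaving out 1 library at a time gave 2 to 4 called members in OVA vs. Saline, 3 to 5 in Herb vs. OVA, 0 to 1 in Herb vs. Saline (1 lower without Herb replicate 4), 0 to 4 single rows in Herb vs. OVA (0 without OVA replicate 1) and 0 to 1 in Herb vs. Saline (1 without Herb replicate 2). Log2 fold changes that passed through 0 were H2-DMb1 in OVA vs. Saline (-0.69 to 0.01), Ciita (-0.25 to 0.27) and H2-Ob (-0.27 to 0.15) in Herb vs. OVA, and Cd74 (-0.19 to 0.31), H2-Aa (-0.08 to 0.33) and H2-Ab1 (-0.15 to 0.40) in Herb vs. Saline. Log2 ratio differences did so for H2-O to H2-DM in OVA vs. Saline (-0.80 to 0.37) and Herb vs. Saline (-0.12 to 1.08), Cd74 to the chains (-0.07 to 0.13) and Ctss to Cd74 (-0.31 to 0.30) in Herb vs. OVA, and H2-Ab1 to H2-Aa in Herb vs. Saline (-0.12 to 0.09).

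With the highest row of each gene in place of the sum, Cd74 to the chains changed sign in OVA vs. Saline (0.02) and Herb vs. OVA (-0.12), and Ctss to Cd74 in Herb vs. OVA (0.21). The cause of these changes was not tested.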
